A study of Homo sapiens with 9 samples.

Results

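The gene set comprised 40 human genes of the endoplasmic reticulum (ER) that fold secreted and membrane proteins, remove those that fail to fold, or sense their accumulation. They were chosen by symbol, and each was represented by the brightest probe set that carried its symbol alone. A measured value was obtained for 38 of the 40, out of 19775 genes measured on the arrays. TXNDC5 and SYVN1 had only probe sets shared with a second symbol and were not described further. Transcript levels were read from Affymetrix HG-U133 Plus 2.0 arrays of HT29, a human colon cancer cell line. The cells were incubated with instant caffeinated coffee at 7 µg/mL for 24 h (ICC), with caffeic acid, a coffee polyphenol, at 1.68 µg/mL for 24 h (CA), or left untreated (Control). Each group had 3 arrays, numbered 1 to 3. The study asked how coffee or one of its polyphenols alters gene expression in these cells. The labels do not say whether the arrays came from separate cultures, and each p-value reflects no more than the array-to-array spread, which may be technical. A single cell line was used in all groups.

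Proteins entering the ER are bound by the HSP70-type chaperone HSPA5 (BiP) and the HSP90-type chaperone HSP90B1, pass through a cycle of sugar-dependent folding on calnexin and calreticulin, and acquire disulfide bonds from protein disulfide isomerases. Proteins that do not fold are drawn back to the cytosol and degraded, a process called ER-associated degradation. When unfolded protein accumulates, the membrane sensors ERN1 (IRE1), ATF6 and EIF2AK3 (PERK) start the unfolded protein response. ERN1 splices the XBP1 message to yield an active transcription factor, ATF6 is cleaved to release one, and PERK slows translation while favouring that of ATF4. A 3′ expression array does not distinguish spliced from unspliced XBP1. Secretory epithelium of the intestine is known to depend on this response.

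Many of these genes carry an ER stress response element (ERSE) in their promoters, at which ATF6 and XBP1 are known to act. The element, CCAAT followed after 9 bases of any kind by CCACG, was searched on both strands of the RefSeq promoter windows of GRCh38.p14, each 300 bases long, with 250 bases before the gene start and 50 after it. It was found in 9 of the 37 listed members with a window (24.3%), against 0.0916% of 27305 genes. The related ERSE-II, ATTGG and CCACG with 1 base of any kind between them, was found in 3 members (8.11%), against 0.0696% of genes. Both motifs share the letters CCACG, and 12 members held one or the other (32.4%, against 0.161% of genes). The shorter motif TGACGTG was found in 4 members (10.8%, against 2.4% of genes). The elements are shown for the 12 members that held one. Capitals mark the fixed letters, and each element is read 5′ to 3′ on the stated strand. A match describes the sequence, and binding was not measured. Since such elements are known from genes of this kind, the higher share among the members is a description and no test. HYOU1 held its element at 2 places, of which 1 is shown.
CALR ERSE (chr19:12938384-12938402, minus strand): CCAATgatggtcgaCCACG
CANX ERSE (chr5:179698778-179698796, plus strand): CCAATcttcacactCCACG
CRELD2 ERSE (chr22:49918554-49918572, minus strand): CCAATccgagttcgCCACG
ERO1B ERSE (chr1:236282183-236282201, plus strand): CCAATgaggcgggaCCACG
FICD ERSE (chr12:108515123-108515141, plus strand): CCAATgggagtggcCCACG
HSP90B1 ERSE (chr12:103930216-103930234, plus strand): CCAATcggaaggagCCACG
HSP90B1 ERSE (chr12:103930321-103930339, minus strand): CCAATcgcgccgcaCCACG
HSPA5 ERSE (chr9:125241391-125241409, minus strand): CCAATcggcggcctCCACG
PDIA6 ERSE (chr2:10812853-10812871, minus strand): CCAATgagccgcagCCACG
XBP1 ERSE (chr22:28800603-28800621, minus strand): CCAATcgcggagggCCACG
HERPUD1 ERSE-II (chr16:56932025-56932035, plus strand): ATTGGgCCACG
HYOU1 ERSE-II (chr11:119057380-119057390, plus strand): ATTGGaCCACG
SDF2L1 ERSE-II (chr22:21642114-21642124, minus strand): ATTGGtCCACG

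The 250 bases before the gene start are shown for HSPA5, the principal chaperone, and for XBP1 and HERPUD1, whose levels varied most among the members that hold an element. Capitals mark the whole element.
HERPUD1 (chr16:56931892-56932141, plus strand): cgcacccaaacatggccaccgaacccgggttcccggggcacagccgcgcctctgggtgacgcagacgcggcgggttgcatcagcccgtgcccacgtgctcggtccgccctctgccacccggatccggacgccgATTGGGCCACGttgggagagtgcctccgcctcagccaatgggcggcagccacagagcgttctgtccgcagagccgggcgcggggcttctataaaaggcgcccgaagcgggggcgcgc
HSPA5 (chr9:125241344-125241593, minus strand): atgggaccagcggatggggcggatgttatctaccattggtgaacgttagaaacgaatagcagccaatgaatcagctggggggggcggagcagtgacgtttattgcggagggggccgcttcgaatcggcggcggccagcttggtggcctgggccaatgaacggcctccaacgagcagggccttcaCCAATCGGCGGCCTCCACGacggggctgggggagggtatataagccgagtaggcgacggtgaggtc
XBP1 (chr22:28800570-28800819, minus strand): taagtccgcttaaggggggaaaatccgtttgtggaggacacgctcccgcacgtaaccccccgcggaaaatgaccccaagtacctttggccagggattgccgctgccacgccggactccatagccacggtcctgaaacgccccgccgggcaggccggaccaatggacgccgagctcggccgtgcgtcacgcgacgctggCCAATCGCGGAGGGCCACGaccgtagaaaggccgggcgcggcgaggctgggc

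All but 1 of the 38 measured members lay above the median of all probe sets, the exception being ERO1B, an oxidase that recharges the disulfide isomerases, at a mean of 3.95 log2 intensity. The markers of colon epithelium were at a median of 11.7 log2, with 8 of 10 above the median gene, although CDX2 (5.94) and CEACAM5 (6.20) were below it. Of the other cell types, 1 of 6 fibroblast, 1 of 5 leukocyte and 0 of 4 endothelial markers were above the median gene. The epithelial list differed little between groups, averaging 10.54 in ICC, 10.50 in CA and 10.54 in Control on the log2 scale. Median intensities of the arrays lay between 43.8 and 46.6, and precision is limited by having 9 arrays.

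The median range over the 9 arrays was 0.42 log2 for the members, against 0.37 over all genes. A range under 0.5 was seen in 25 members (65.8%), against 77.4% of all genes. A range over 1 was seen in 3 members, ERN1 (2.13), HERPUD1 (1.15) and XBP1 (1.06), and in 1.72% of all genes. In the heatmap of deviations, most members were above their own mean on the arrays numbered 3, and 28 members were so on Control array 1. ERN1, XBP1 and HERPUD1 were higher on the arrays numbered 2 than on those numbered 3. ERN1 and HERPUD1 were also high on Control array 1, at 9.37 and 10.94 log2, against 8.81 and 11.00 on Control array 2.

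**Figure D1:**
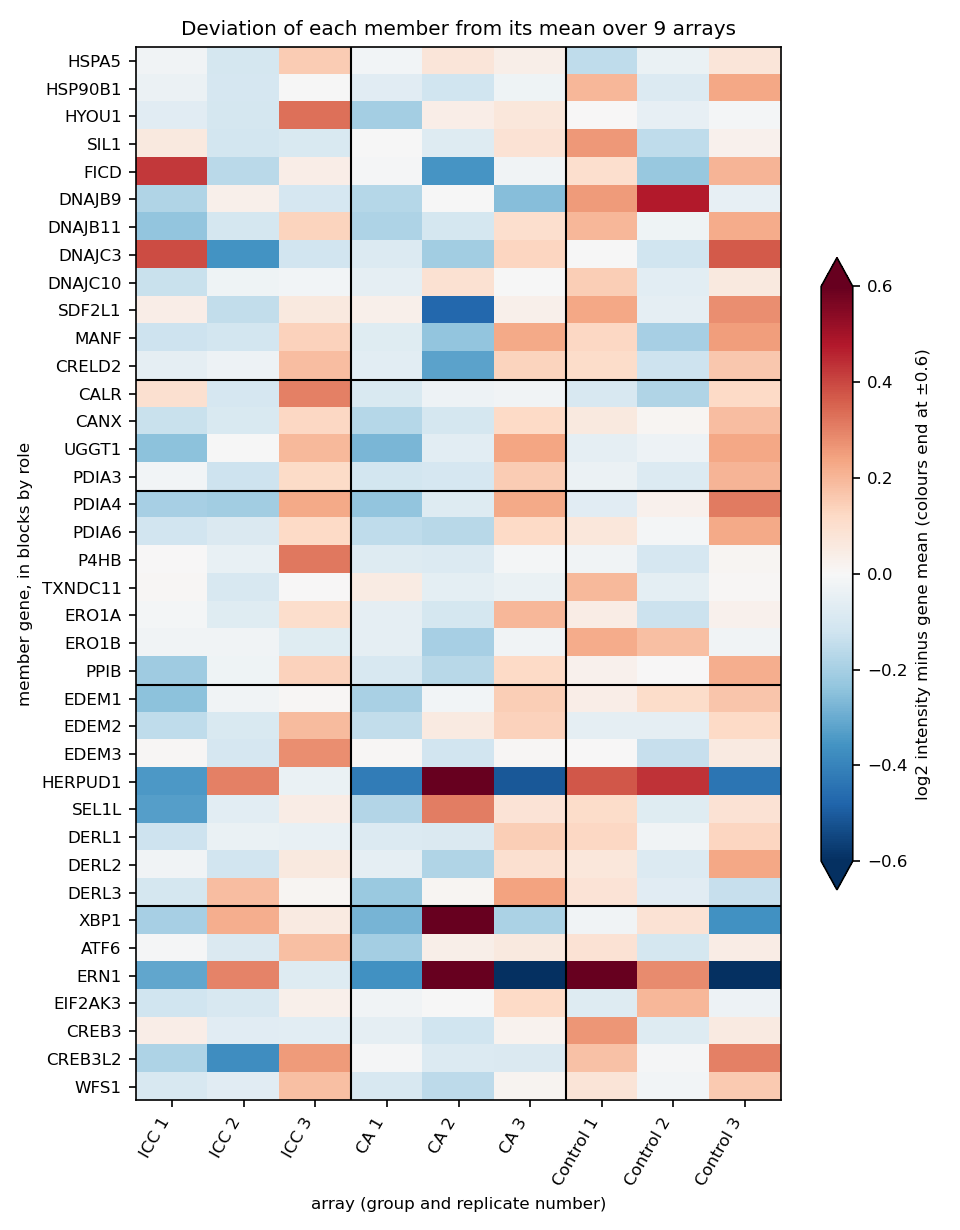
Log2 intensity of each of the 38 measured members (rows, in blocks by role) on each of the 9 arrays (columns), as the deviation from the gene's mean over the arrays; colours end at 0.6 in either direction. Of the 38 members, 5 were above their own mean on ICC array 2 (49.2% of all genes) and 10 each on CA array 2 (43.3%) and Control array 2 (42.9%). On ICC array 3 they were 28 (47.3% of all genes), on CA array 3 26 (48.1%) and on Control array 3 30 (42.2%).

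Coffee was compared with no treatment first. No member passed an adjusted p of 0.05 in ICC against Control by limma, as no gene of the 19775 did (0%). Members lay mostly slightly lower in ICC: 28 of 38 had a difference below 0, against 39.8% of all genes, with a median of -0.10 log2, against 0.03 over all genes. At an unadjusted p under 0.05, 1 member was lower (1.9% of genes) and 0 higher (5.83% of genes). With the replicate number as a block, 6 members were lower at that level (3.99% of genes), and none passed after adjustment. Below 0 in all 3 pairs of equal number were 14 members (12.2% of genes), and above 0 in all 3 were CALR, EDEM3 and P4HB (21.1% of genes). By pair, the members' median was -0.19 in pair 1, -0.031 in pair 2 and -0.048 in pair 3. For the 27 members with several probe sets, 39 of 55 further probe sets had the sign of the brightest. All of them did so in 15 of these members. In bulk samples, fewer cells of a type and less RNA per cell cannot be told apart.

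Among the chaperones of the ER lumen, HSPA5 read 12.55, 12.47 and 12.73 log2 on ICC arrays 1, 2 and 3, against 12.42, 12.53 and 12.65 on the Control arrays. HSP90B1, which folds receptors and integrins, read 10.96, 10.89 and 10.99 in ICC, against 11.20, 10.91 and 11.23 in Control. The groups overlapped for both genes, and the differences were 0.05 ± 0.09 for HSPA5 and -0.16 ± 0.09 for HSP90B1 (log2, SE; limma adjusted p = 0.918 and 0.677). DNAJB9, a co-chaperone that helps BiP hold ERN1 inactive, had the smallest p of the members. It read 8.56, 8.77 and 8.64 in ICC, against 9.00, 9.22 and 8.69 in Control, so that Control array 3 lay among the ICC arrays. Its difference was -0.31 ± 0.13 (1.24-fold lower; limma adjusted p = 0.630, and 0.317 with the replicate block).

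In the lectin cycle and among the oxidoreductases, the differences were small and of both signs. Calreticulin (CALR), a lectin chaperone of the lumen, read 9.16, 8.96 and 9.36 in ICC, against 8.97, 8.88 and 9.18 in Control, a difference of 0.15 ± 0.11 (limma adjusted p = 0.752). P4HB, the founding protein disulfide isomerase, read 11.89, 11.85 and 12.21 in ICC, against 11.87, 11.79 and 11.91 in Control, and differed by 0.13 ± 0.095 (limma adjusted p = 0.759). ERO1B differed by -0.17 ± 0.083 (limma adjusted p = 0.660), with 3.93, 3.93 and 3.88 in ICC, against 4.17, 4.13 and 3.93 in Control, all below the median of the probe sets. None of these differences exceeded what the test allows for the spread between arrays.

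In the degradation branch, the groups did not overlap for 2 members, EDEM1 and DERL1, both lower in ICC; 3.5% of all genes were lower without overlap, and 0 members were higher without overlap, against 8.46% of genes. EDEM1, which hands misfolded glycoproteins to degradation, read 7.89, 8.11 and 8.14 in ICC, against 8.17, 8.24 and 8.30 in Control. Its difference was -0.19 ± 0.10 (limma adjusted p = 0.664). DERL1, part of the channel through which proteins leave the ER, read 11.79, 11.87 and 11.87 in ICC, against 12.04, 11.89 and 12.04 in Control, a difference of -0.15 ± 0.084 (limma adjusted p = 0.688). The further DERL1 probe sets, in order of brightness, differed by 0.0050, 0.079 and -0.23, so the fall was not shared by all of them. Neither gene passed.

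Among sensors and transcription factors, the array spread was wide. ERN1 read 8.21, 8.82 and 8.45 in ICC, against 9.37, 8.81 and 7.69 in Control, and its pairs differed by -1.16, 0.016 and 0.76. The sign of the ERN1 difference thus depended on the pair, and the overall value was -0.13 ± 0.51 (limma adjusted p = 0.964). XBP1 read 10.53, 10.94 and 10.78 in ICC, against 10.71, 10.81 and 10.36 in Control. The XBP1 groups overlapped, and the difference was 0.12 ± 0.23. ATF6 read 8.99, 8.90 and 9.17 in ICC, against 9.08, 8.88 and 9.03 in Control, a difference of 0.02 ± 0.10. EIF2AK3 read 8.60, 8.62 and 8.75 in ICC, against 8.64, 8.92 and 8.69 in Control, a difference of -0.09 ± 0.09. Both sensors thus overlapped between the groups. CREB3L2, an ER-anchored transcription factor, read 7.29, 7.10 and 7.73 in ICC, against 7.65, 7.47 and 7.78 in Control. Its difference of -0.26 ± 0.14 (limma adjusted p = 0.676) took the opposite sign, 0.11, when probe sets ending in _x_at or _s_at were left out.

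Caffeic acid gave a similar picture against the same Control arrays, which both comparisons share. No member passed in CA against Control by limma (0% of genes), and 30 of 38 had a difference below 0, against 48.6% of all genes. The median was -0.10 log2, against 0.0027 over all genes, and 18 members were below 0 in all 3 pairs, against 13.9% of genes, whereas 0 were above 0 in all 3 (13.8% of genes). The groups overlapped for every member, while 3.46% of all genes were lower and 4.4% higher without overlap. At an unadjusted p under 0.05, 2 members were lower (1.91% of genes) and 0 higher (2.55% of genes). With the replicate block 7 members were lower at that level (4.5% of genes), and 0 passed after adjustment (0.0152% of genes). The median was -0.20 in pair 1, -0.035 in pair 2 and -0.045 in pair 3. Of the 55 further probe sets of 27 members, 37 had the sign of the brightest, with full agreement in 14 members.

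DNAJB9 again had the smallest p, reading 8.57, 8.74 and 8.48 in CA, against 9.00, 9.22 and 8.69 in Control. Only CA array 2 exceeded the lowest Control array, and the difference was -0.37 ± 0.13 (1.29-fold lower; limma adjusted p = 0.996, and 0.375 with the replicate block). SDF2L1, a partner of the BiP co-chaperone DNAJB11, read 8.52, 8.02 and 8.52 in CA, against 8.73, 8.44 and 8.77 in Control. The SDF2L1 difference was -0.29 ± 0.14, below 0 in each pair, and CA arrays 1 and 3 lay above Control array 2. DNAJB11 read 10.37, 10.45 and 10.66 in CA, against 10.75, 10.53 and 10.78 in Control, and HSP90B1 read 10.92, 10.87 and 10.97, against 11.20, 10.91 and 11.23. Both genes overlapped between the groups. DNAJB11 differed by -0.19 ± 0.11, HSP90B1 by -0.19 ± 0.09 and ERO1B by -0.22 ± 0.083 (limma adjusted p = 0.996 for each). In the lumenal chaperone group as a whole, 11 of 12 members were below 0, HSPA5 being above it at 0.07 ± 0.09. The second HSPA5 probe set differed by -0.12.

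ERN1 and XBP1 also varied widely in CA. ERN1 read 8.16, 9.67 and 7.53 in CA, against 9.37, 8.81 and 7.69 in Control, and XBP1 read 10.44, 11.42 and 10.53, against 10.71, 10.81 and 10.36. The highest value of each gene over all 9 arrays was on CA array 2. The overall differences were -0.17 ± 0.51 for ERN1 and 0.17 ± 0.23 for XBP1 (limma adjusted p = 1.0 for both). ATF6 differed by -0.04 ± 0.10, and EIF2AK3 by 0.0007 ± 0.09.

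**Figure D2:**
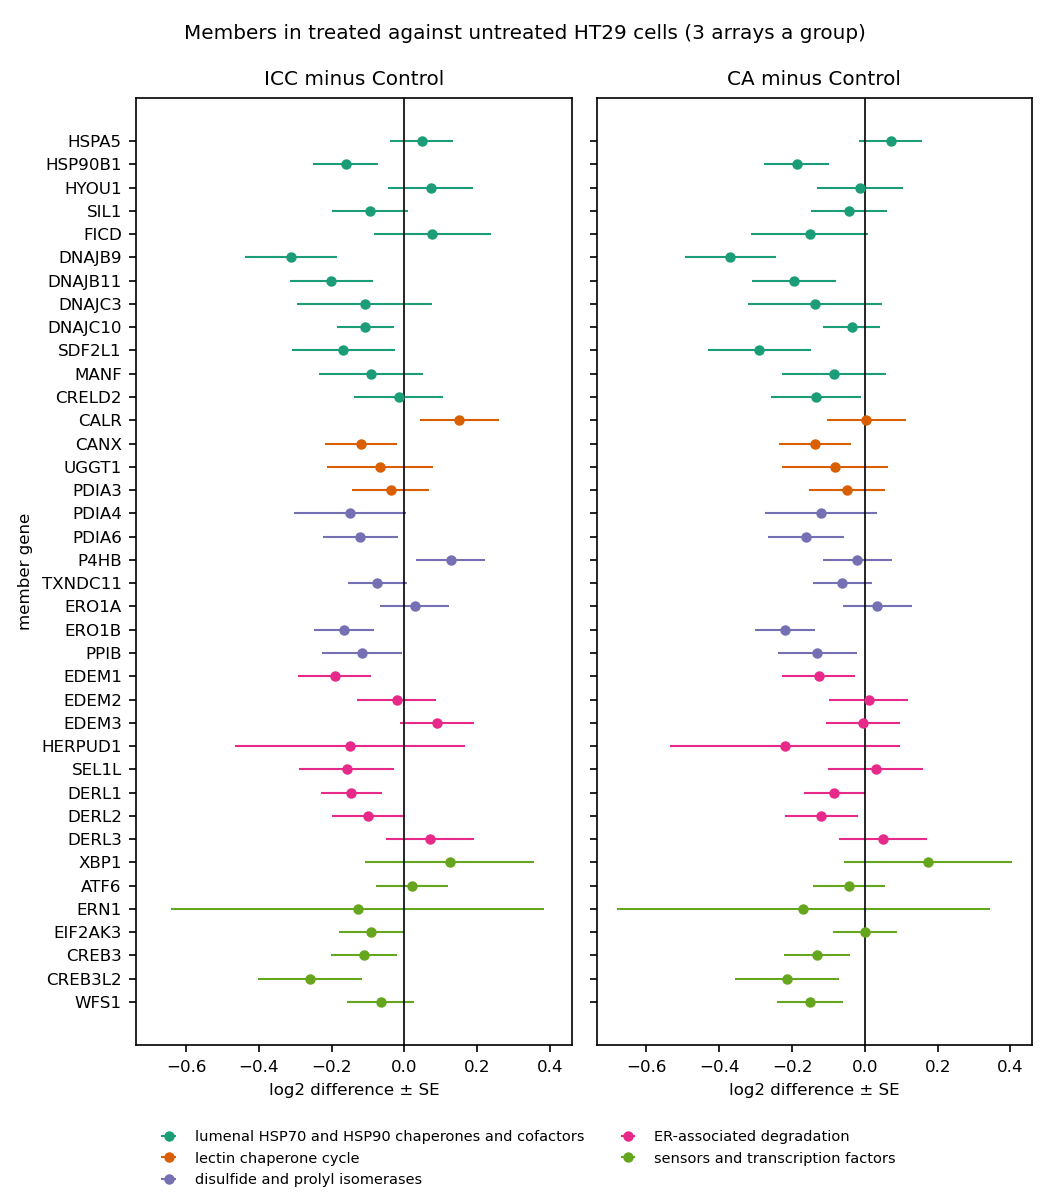
Log2 difference of each of the 38 members in ICC against Control (left) and CA against Control (right), with points for the estimate, bars for ± 1 SE and colours for the role; the vertical line is 0. Most points lie left of 0 in both panels, 28 in ICC and 30 in CA, and none passed the test; the panels share the Control arrays.

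The members were compared directly between ICC and CA, whose doses differ, so that the values stand for these preparations as given. No member passed in ICC against CA by limma (0% of genes); with the replicate block 0 members passed (0.00506% of genes). Of the members, 23 were above 0 and 15 below it, against 39.4% of genes below 0, with a median of 0.02 log2, against 0.02 over all genes. Here 32 of 55 further probe sets had the sign of the brightest, with full agreement in 10 of 27 members. The smallest p belonged to P4HB, at 11.89, 11.85 and 12.21 in ICC, against 11.82, 11.81 and 11.88 in CA, with overlap. The P4HB difference was 0.15 ± 0.095, with a 95% interval from -0.063 to 0.36 (limma adjusted p = 1.0, as for the other members named here). SEL1L, the scaffold of a degradation complex, read 8.46, 8.72 and 8.83 in ICC, against 8.61, 9.09 and 8.87 in CA. It differed by -0.19 ± 0.13 (95% interval -0.48 to 0.10), and the groups overlapped. FICD, which modifies BiP, read 7.49, 6.90 and 7.10 in ICC, against 7.06, 6.71 and 7.04 in CA, and its interval ran from -0.13 to 0.59 around 0.23. For CALR, at 8.97, 9.03 and 9.04 in CA, the interval was -0.094 to 0.39, and for EIF2AK3, at 8.70, 8.71 and 8.84 in CA, it was -0.29 to 0.10. These intervals leave room for differences of either sign, so similarity of the treatments was not shown.

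Arrays with equal numbers resembled each other across the groups, so the members were also compared by number, with group in the model. What the number stands for is not given in the labels. Replicate 1 was set against replicates 2 and 3 together, and 2 of 38 members passed, both lower; 5.07% of all genes passed, 1.05% lower and 4.03% higher. Below 0 were 28 members (39.8% of genes), with a median of -0.047 log2, against 0.03 over all genes. The direction was not shared by the groups: the median was -0.13 within ICC and -0.077 within CA, but 0.058 within Control. On array 1, 9 members were above their own mean in ICC (67.8% of all genes) and 3 in CA (49.6% of genes), against 28 in Control (50.4% of genes). In all 3 groups 11 members were below 0 (13.2% of genes) and 5 above it (27.1% of genes). At an unadjusted p under 0.05, 5 members were lower (5.44% of genes) and 2 higher (14.2% of genes). Array 1 lay outside arrays 2 and 3 without overlap for 0 members, against 1.99% of genes lower and 7.21% higher. UGGT1, which re-tags unfolded glycoproteins with glucose so that they re-enter the calnexin cycle, read 9.37 on ICC array 1, 9.34 on CA array 1 and 9.57 on Control array 1. On arrays 2 and 3 it read 9.62 and 9.81 in ICC, 9.56 and 9.86 in CA, and 9.59 and 9.85 in Control. UGGT1 was thus lowest on the array numbered 1 in each group, and it fell by 0.29 ± 0.062 (limma adjusted p = 0.0285). Its 4 further probe sets were mixed in this comparison, at 0.061, -0.16, -0.073 and 0.014, and none of the 4 passed when tested singly. The mean of the UGGT1 probe sets differed by -0.089 and did not pass (limma adjusted p = 0.387). When probe sets were tested singly, 5 of the 93 member probe sets passed, against 2211 of all 54613. The brightest CANX probe set differed by -0.12 and did not pass. The next in brightness differed by -0.47 and -0.36 and passed (limma adjusted p = 0.00631 and 0.0416). The dimmer ones differed by -0.28 and 0.16 and did not pass.

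PDIA4, a disulfide isomerase, read 10.70, 10.66 and 10.83 on the arrays numbered 1 in ICC, CA and Control. On arrays 2 and 3 it read 10.69 and 11.12 in ICC, 10.82 and 11.12 in CA, and 10.92 and 11.21 in Control. ICC array 2 lay just below ICC array 1, and the difference was -0.25 ± 0.058 (limma adjusted p = 0.0342). Its second probe set differed by -0.018, and the call was lost with the mean of probe sets (limma adjusted p = 0.140), with no group term (0.062) and with _x_at and _s_at probe sets left out (0.913). EDEM1 differed by -0.20 ± 0.060, EDEM2, its relative in glycoprotein degradation, by -0.18 ± 0.061, and FICD by 0.26 ± 0.078 (limma adjusted p = 0.0933, 0.144 and 0.0937). FICD read 7.49, 7.06 and 7.16 on ICC, CA and Control arrays numbered 1, where ICC array 1 was its highest value. With 1 array left out, UGGT1 passed in 3 of 9 fits (without Control array 1, Control array 2 or CA array 2) and PDIA4 in 1 of 9 (without ICC array 2), and the highest adjusted p was 0.175 for UGGT1 and 0.199 for PDIA4.

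Most members were lower on the arrays numbered 2 than on those numbered 3. In replicate 2 against replicate 3, 2 of 38 members passed, PDIA4 and MANF, both lower; 1.73% of all genes passed, 0.799% lower and 0.936% higher. Below 0 were 32 members, against 51.2% of all genes, with a median of -0.18 log2, against -0.0028 over all genes. The median was -0.20 within ICC, -0.16 within CA and -0.17 within Control. In all 3 groups 26 members were below 0 (16.7% of genes) and 4 above it (16.6% of genes). At an unadjusted p under 0.05, 21 members were lower (6.99% of genes) and 4 higher (7.39% of genes). The arrays numbered 2 were lower than those numbered 3 without overlap for 23 members (8.9% of genes) and higher without overlap for 4 (9.47% of genes).

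MANF, a secreted factor induced by ER stress, read 9.75, 9.63 and 9.66 on the arrays numbered 2 in ICC, CA and Control, against 10.00, 10.09 and 10.11 on those numbered 3. The ranges were apart, and MANF fell by 0.39 ± 0.078 (1.31-fold; limma adjusted p = 0.0410). PDIA4 read 10.69, 10.82 and 10.92 on the arrays numbered 2, against 11.12, 11.12 and 11.21 on those numbered 3. It fell by 0.34 ± 0.067 (1.27-fold; limma adjusted p = 0.0394), while its second probe set differed by -0.088. Each of these calls held in 1 of the 9 fits with an array left out, that without Control array 1. In the other 8 the adjusted p lay between 0.0547 and 0.185 for MANF and between 0.0570 and 0.167 for PDIA4, with the difference below 0 throughout. PDIA4 also did not pass with no group term (limma adjusted p = 0.0613), with the mean of probe sets (0.0865) or with _x_at and _s_at probe sets left out (0.669). MANF passed with no group term (limma adjusted p = 0.0439). MANF has only the probe set used here, so the changes of probe sets left its difference as it was and cannot test its call.

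A pair of further lumenal factors did not pass. SDF2L1 read 8.35, 8.02 and 8.44 on the arrays numbered 2 in ICC, CA and Control, against 8.55, 8.52 and 8.77 on those numbered 3, a difference of -0.35 ± 0.077 (limma adjusted p = 0.0552). CRELD2, another secreted ER stress protein, read 9.54, 9.25 and 9.45, against 9.76, 9.70 and 9.73, a difference of -0.32 ± 0.077 (limma adjusted p = 0.0722). Neither gene overlapped between the numbers. HSP90B1 differed by -0.17 ± 0.072 and HSPA5 by -0.11 ± 0.075.

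The direction was shared by most roles. Below 0 were 11 of 12 lumenal chaperones and cofactors (median -0.20), 4 of 4 members of the lectin cycle (-0.24), 6 of 7 isomerases (-0.21), 6 of 8 degradation members (-0.10) and 5 of 7 sensors and factors (-0.093). The lectin cycle members CANX, CALR, UGGT1 and PDIA3 differed by -0.20, -0.24, -0.25 and -0.26. CALR was not uniform over its probe sets, since the other 2 differed by 0.62 and -0.53. Over the 27 members with several probe sets, 43 of 55 further probe sets had the sign of the brightest.

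**Figure D3:**
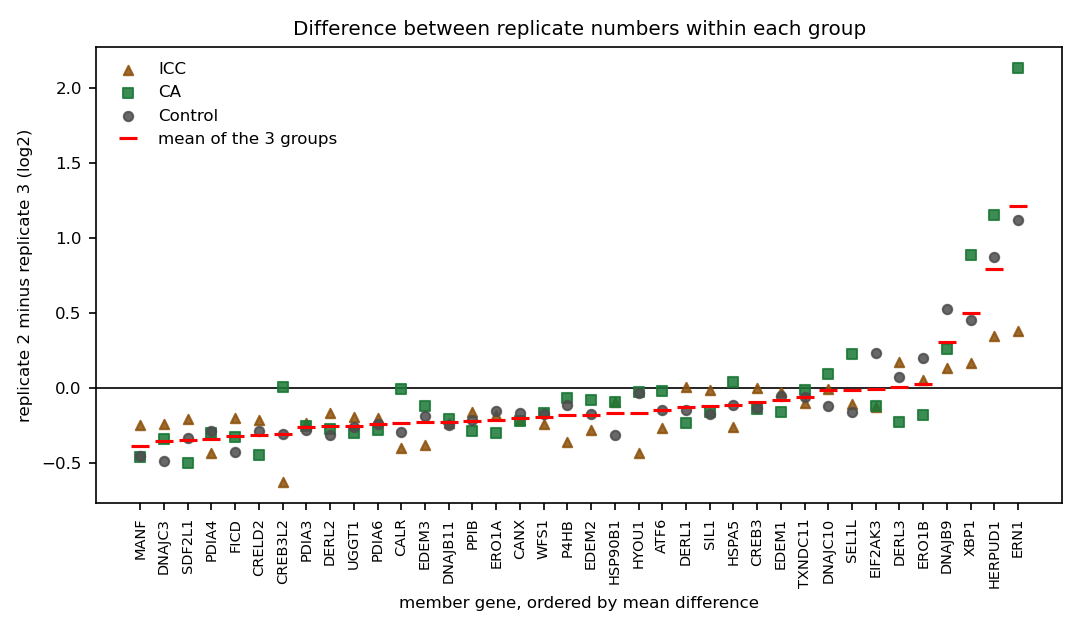
Difference in log2 intensity between arrays numbered 2 and 3 (vertical axis) for each of the 38 members (horizontal axis, ordered by the mean), with 1 symbol for each of ICC, CA and Control and a red bar for their mean. All 3 symbols lie below 0 for 26 members and above 0 for 4, DNAJB9, XBP1, HERPUD1 and ERN1.

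The 4 members above 0 in all 3 groups were HERPUD1, DNAJB9, XBP1 and ERN1. HERPUD1, a membrane protein that organises the degradation complex, read 10.87, 11.20 and 11.00 on the arrays numbered 2 in ICC, CA and Control, against 10.52, 10.05 and 10.12 on those numbered 3. Its ranges did not overlap, and the difference was 0.79 ± 0.19 (1.73-fold; limma adjusted p = 0.0726). With the mean of probe sets HERPUD1 and DNAJB9 passed as higher, and HERPUD1 also passed with array weights and without Control array 1 or ICC array 3. HERPUD1 did not pass with centring (limma adjusted p = 0.0554), a further quantile normalization (0.0660), no dim genes (0.0566) or no group term (0.0726). With _x_at and _s_at probe sets left out, its difference was 0.25 and did not pass (limma adjusted p = 0.137). ERN1 read 8.82, 9.67 and 8.81, against 8.45, 7.53 and 7.69, a difference of 1.21 ± 0.35 (2.31-fold; limma adjusted p = 0.132). The ERN1 difference was 0.38 within ICC, 2.13 within CA and 1.12 within Control, and its 3 probe sets differed by 1.21, 0.34 and 0.38. XBP1 read 10.94, 11.42 and 10.81, against 10.78, 10.53 and 10.36, a difference of 0.50 ± 0.15 (limma adjusted p = 0.139). DNAJB9 differed by 0.30 ± 0.085 (limma adjusted p = 0.117). The dimmest DNAJB9 probe set differed by 0.89 ± 0.084 and passed when the 54613 probe sets were tested singly (limma adjusted p = 0.00416). It was the only 1 of the 93 member probe sets to pass in this comparison, and was singled out for that. ATF6 and EIF2AK3, the other sensors, differed by -0.15 ± 0.088 and -0.008 ± 0.082.

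**Figure D4:**
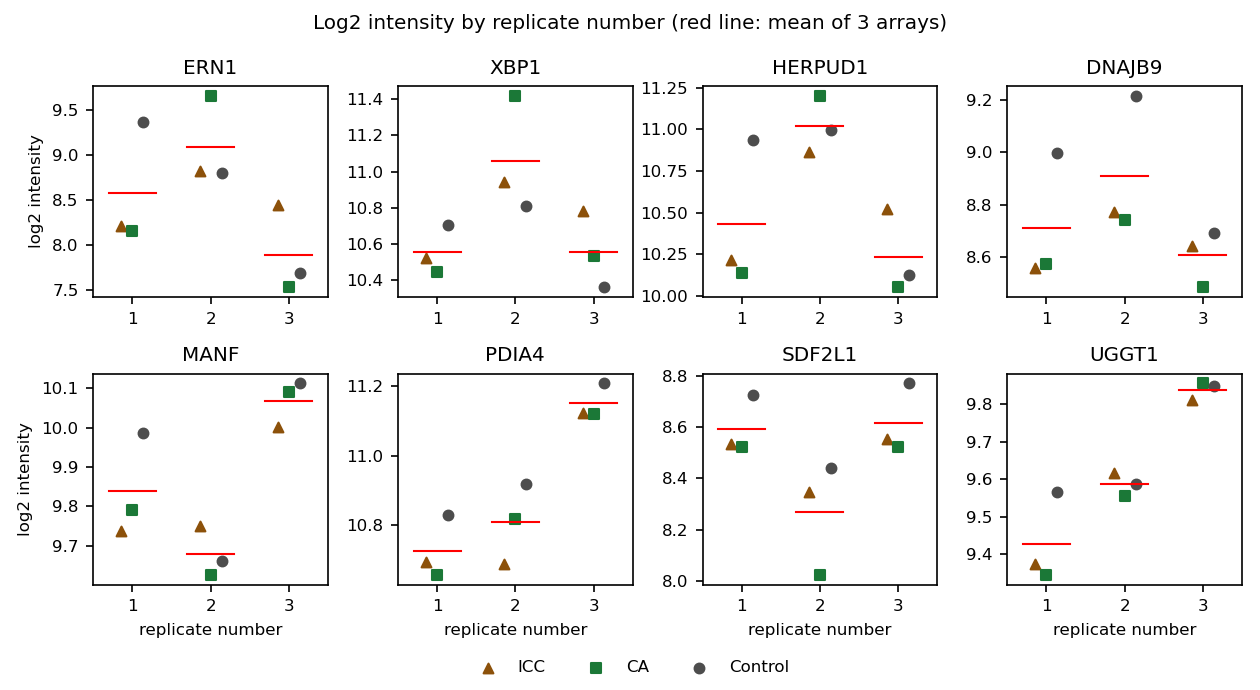
Log2 intensity (vertical axes, which differ between panels and do not start at 0) by replicate number (horizontal axes) for 8 members, with 1 symbol for each of ICC, CA and Control and a red line for the mean of 3 arrays. ERN1, XBP1, HERPUD1 and DNAJB9 were highest at number 2 on average, and MANF and SDF2L1 lowest; PDIA4 and UGGT1 were lowest at number 1.

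Members with and without an ERSE or ERSE-II were set side by side, as a description. In replicate 2 against 3 the median was -0.19 log2 for the 12 members with an element and -0.18 for the 23 without. XBP1 and HERPUD1, whose elements are printed above, lay above 0, whereas the element-bearing SDF2L1 and CRELD2 lay below it. For ICC against Control the medians were -0.068 with an element and -0.099 without, and for CA against Control -0.14 and -0.084.

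The neighbouring PERK and ATF4 branch was described from a list of 11 genes. In replicate 2 against replicate 3 all 11 were above 0, with a median of 1.36 log2, and all 11 were higher without overlap (9.47% of all genes). Of the 11, 6 passed as higher, against 0.936% of all genes: ATF4, CEBPG, CHAC1, DDIT3, PPP1R15A and SESN2. ATF4, the transcription factor of the branch, read 12.25, 12.51 and 12.26 on the arrays numbered 2 in ICC, CA and Control, against 11.91, 11.69 and 11.64 on those numbered 3. It rose by 0.60 ± 0.098 (limma adjusted p = 0.0251), DDIT3 (CHOP), which promotes cell death under lasting stress, by 1.44 ± 0.25 (0.0277), and SESN2 by 1.69 ± 0.30 (0.0303). No gene of the list passed without Control array 2, Control array 3, CA array 2 or CA array 3, 1 passed without ICC array 2, and 10 passed without Control array 1. Over all genes, calls in these fits, in the same order, numbered 35, 8, 17, 6, 44 and 360, against 343 with all arrays. The list was also high on Control array 1. In replicate 1 against replicates 2 and 3 its median was 0.97 within Control, but -0.15 within ICC and -0.17 within CA. On Control arrays 1, 2 and 3 DDIT3 read 9.30, 9.14 and 7.51, and ATF4 read 12.06, 12.26 and 11.64. In the treatment comparisons none of the 11 passed. Their median in ICC against Control was -0.59, 0.12 and 0.76 in pairs 1, 2 and 3, and in CA against Control -0.88, 0.65 and 0.046.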

How the data were processed

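Per the submitters' processing notes, RMA produced the deposited intensity values, which are linear; version and settings: not given in the sources used here. A log2 scale had been assumed in the design, so log2 of each value was taken. Of 54675 probe sets, 41091 carried 1 gene symbol, and the brightest of each gene was kept (19775 genes). The 9 arrays were fitted with limma 3.58.1 in R 4.3.3 by group, and for replicate numbers by group and number together. P-values were adjusted by Benjamini-Hochberg over all genes, with 0.05 as threshold, and ± is the moderated SE. The procedure was tested on simulated arrays with independent noise, so the likeness of same-numbered arrays was not part of that test. An exact permutation test of 3 against 3 arrays cannot give a p under 0.1.

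After group means were removed, same-numbered arrays correlated at 0.327 to 0.518 (9 pairs) and others at -0.436 to 0.0839 (18 pairs), so the number was used as a block in an alternative fit. Further alternatives were another scaling, other probe sets per gene, no dim genes, array weights, and each array left out. Named members were the 2 principal chaperones, 4 sensors and factors, and the 5 smallest p in each comparison. Other members and genes of the lists were named where a count or contrast singled them out after their values were seen. The members and lists were chosen with earlier results of these data known. Tables and figures used Python 3.11.15 and matplotlib 3.10.9.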

Additional observations from a re-analysis of the deposited data

How the results depend on the processing

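No member passed in ICC against Control, CA against Control or ICC against CA under any alternative run, the fit with the replicate number as a block included; over all genes the block gave 3 genes in CA against Control and 1 in ICC against CA, in place of 0. The medians stayed below 0 in ICC against Control and CA against Control; without 1 array they ran from -0.13 to -0.044 and from -0.16 to -0.043, and with the block from -0.12 to -0.025 and from -0.12 to -0.026. Without the block, the ICC median moved most on leaving out Control array 3 (-0.044), ICC array 1 (-0.056) or Control array 1 (-0.060), and the CA median on leaving out CA array 1 (-0.043), Control array 3 (-0.046) or CA array 3 (-0.16). Centring gave 49.3% of all genes below 0 in ICC against Control, against 39.8% without it. In ICC against CA the median of 0.02 became -0.011 with centring and -0.00541 with the mean of probe sets, and ran from -0.031 to 0.090 without 1 array (-0.023 to 0.043 with the block). For replicate 1 against 2 and 3, members passing numbered 1 without a group term, 0 with the mean of probe sets, 1 without _x_at and _s_at probe sets (UGGT1 in both cases of 1), and 0 to 1 without 1 array. For replicate 2 against 3 they numbered 1 without a group term (MANF), 4 with the mean of probe sets (DNAJB9 and HERPUD1 higher, MANF and SDF2L1 lower), 6 without dim genes (CRELD2, DERL2, MANF, PDIA3, PDIA4 and SDF2L1), 4 with array weights (HERPUD1, MANF, PDIA4 and SDF2L1), and 0 to 3 without 1 array. Over all genes, replicate 2 against 3 gave 214 calls without a group term and 283 with the mean of probe sets. Without dim genes 537 of 12279 passed and with array weights 510, against 343 of 19775 in the main fit. For replicate 1, the calls over all genes were 791 without a group term and 940 with the mean of probe sets. They were 733 of 17098 without _x_at and _s_at probe sets, against 1003 of 19775 in the main fit. The members' median in replicate 2 against 3 was -0.15 with the mean of probe sets and -0.14 without _x_at and _s_at probe sets. Without 1 array it ran from -0.22 to -0.16. CREB3L2 in ICC against Control was 0.11 without _x_at and _s_at probe sets. The cause of these shifts was not tested. Leaving out an array removes 1 of 3 in its group and number, and over all genes passed counts ran from 337 to 939 for replicate 1 and from 6 to 360 for replicate 2 against 3.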

Other observations

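Other factors of the ER outside the 40 genes also differed by replicate number. AGR2, an ER disulfide isomerase of mucus-producing epithelium, read 10.50, 10.14 and 10.71 log2 on the arrays numbered 1 in ICC, CA and Control. On arrays 2 and 3 it read 11.18 and 11.50 in ICC, 10.73 and 11.28 in CA, and 11.15 and 11.50 in Control. It fell by 0.77 ± 0.070 in replicate 1 against replicates 2 and 3 (limma adjusted p = 3.3e-04) and by 0.40 ± 0.081 in replicate 2 against replicate 3 (limma adjusted p = 0.0408). CREB3L1, an ER-anchored transcription factor, fell by 0.48 ± 0.078 in replicate 1 (limma adjusted p = 0.0067). Their list of stress factors had 10 of 18 measured genes above 0 in replicate 1 and 2 that passed, both lower, against 1.05% of all genes. The further folding factors had 20 of 38 above 0, and TMX3, an ER thioredoxin-like protein, fell by 0.27 ± 0.061 (limma adjusted p = 0.0322). Of the degradation factors 12 of 24 were above 0, and UBE2J1, an ER-bound ubiquitin-conjugating enzyme, rose by 0.27 ± 0.061 (limma adjusted p = 0.0322), in a comparison where 4.03% of all genes passed as higher. Of 38 measured further folding factors, 28 were below 0 in replicate 2 against replicate 3, against 51.2% of all genes, and 2 passed as lower, against 0.799% of all genes: MLEC, an ER lectin, and MESD, a chaperone of lipoprotein receptors.

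The second brightest probe set of CALR differed by 0.95 ± 0.26 in ICC against Control, while the other 2 differed by 0.15 and 0.13. It did not pass over the 54613 probe sets (limma adjusted p = 0.489, and 0.106 with the replicate block).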
